A study of Mus musculus with 15 samples.

Results

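Expression of the Id genes Id1, Id2 and Id3 and of the E protein genes Tcf3, Tcf4 and Tcf12 was followed over 15 single-colour Affymetrix arrays of mouse myeloid cells. Members were all probe sets that the array annotation gives to a single one of these symbols, and they made up 19 of 45037 probe sets. Id1 and Id3 had 1 probe set each, Id2 and Tcf3 had 3 each, Tcf12 had 5 and Tcf4 had 6, and 0 probe sets of a member were shared with another gene. By their Entrez identifiers (21423 and 21413), Tcf3 and Tcf4 are here the E protein genes, not Tcf7l1 and Tcf7l2, which carry the same older aliases. A gene given by a single value is represented by the brightest of its probe sets on average over the 15 arrays.

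All cells came from wild-type C57Bl/6 mice at steady state, and no transgene or deletion is named. Common myeloid progenitors (CMP) were sorted from bone marrow as CD117 high and CD135+, and common dendritic cell progenitors (CDP) as CD117 intermediate and CD135+, both without CD16/32 and CD11c. Granulocyte-macrophage progenitors (GMP) were sorted as CD117 high, CD135- and CD16/32+. Precursors of classical dendritic cells (pre-cDC) were CD11c+ and CD135+ with low CD117. IL7R and MHCII served as exclusion markers in these sorts, and each of these 4 groups had 2 arrays. The other 7 arrays were single: a pre-cDC sample titled Spl, 3 cultures and 3 monocyte samples. Whole bone marrow was also grown for 7 days at 20 ng/ml of cytokine, giving adherent cells with M-CSF, and adherent and non-adherent CD11c+ cells with GM-CSF. Bone marrow monocytes, purified by negative selection, received 20 ng/ml of GM-CSF and were taken at 0, 24 and 48 h. The labels do not say whether the paired progenitor arrays came from separate animals, so the spread behind a p-value may be technical.

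E proteins are basic helix-loop-helix transcription factors that bind E-box motifs in DNA as dimers, with each other or with tissue-restricted class II partners such as Tal1. Id proteins have the helix-loop-helix but no basic DNA-binding region, so they pair with E proteins and keep them off DNA. In dendritic cells, Tcf4 is known as a factor that plasmacytoid dendritic cells depend on, and Id2 as an inhibitor that several classical dendritic cells and Langerhans cells depend on, while Tcf3 and Tcf12 are best known from lymphocyte development.

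Because Id2 and Tcf3 differed between CDP and pre-cDC, and Id3 between monocyte arrays, the 250 bases before the start of each of these 3 genes are shown. They were read from RefSeq promoters of build GRCm38.p6, 5′ to 3′ on the strand of the gene, and hold no transcribed base. Capitals mark E-box motifs, searched on both strands as CAGCTG, which is its own reverse complement, and as CAGGTG with its reverse complement CACCTG.
Id2 (chr12:25096093-25096342, minus strand): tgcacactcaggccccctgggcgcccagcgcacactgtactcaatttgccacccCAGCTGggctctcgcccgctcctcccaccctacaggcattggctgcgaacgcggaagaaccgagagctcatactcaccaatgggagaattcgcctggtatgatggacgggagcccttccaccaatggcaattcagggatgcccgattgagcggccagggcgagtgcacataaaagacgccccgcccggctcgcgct
Id3 (chr4:136143572-136143821, plus strand): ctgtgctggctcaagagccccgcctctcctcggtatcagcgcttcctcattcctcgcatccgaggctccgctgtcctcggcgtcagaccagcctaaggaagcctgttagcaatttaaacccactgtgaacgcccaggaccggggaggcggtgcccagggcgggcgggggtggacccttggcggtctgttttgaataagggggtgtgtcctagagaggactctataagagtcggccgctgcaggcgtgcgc
Tcf3 (chr10:80433636-80433885, minus strand): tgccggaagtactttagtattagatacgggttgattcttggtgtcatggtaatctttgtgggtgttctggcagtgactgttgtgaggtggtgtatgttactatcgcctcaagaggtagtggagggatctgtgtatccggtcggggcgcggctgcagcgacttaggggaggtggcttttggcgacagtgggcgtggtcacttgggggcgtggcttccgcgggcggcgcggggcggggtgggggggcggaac
The Id2 stretch held a CAGCTG whose first base lay 196 bases before the start, and the Id3 and Tcf3 stretches held 0 matches. Over 4 member genes with an entry, 2 of 6 such stretches held a match, the other being a CAGCTG 240 bases before the first of 3 Tcf12 starts. The same letters occurred in 27.7% of 32851 RefSeq stretches of this length, so a match here is a description and not a binding site.

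Array medians lay at 15.95 to 17.44 for progenitors, at 24.09 to 25.66 for cultures and at 77.73 to 80.53 for monocytes, so levels are set against each other only within each of these sets. The arrays of a progenitor group correlated at 0.994 to 0.996 across all probe sets on the log2 scale, and 6 to 19 probe sets differed 2-fold between them. Of the genes of the sort markers, Kit, Flt3 and Fcgr3 followed the gates in the bone marrow groups, and some genes of exclusion markers did not. Itgax was highest in pre-cDC, at 1537 and 1563, where its product was sorted for. It also read 152.6 and 123.9 in CDP against 24.55 and 24.49 in CMP, both sorted without that product. Fcgr2b, another gene of the marker to which Fcgr3 belongs, read 722.6 and 658.4 in GMP. In CMP and CDP, sorted without that marker, Fcgr2b was lower but still read 217.6 to 350.4. H2-Ab1, an MHCII gene, read 3550 and 3939 in pre-cDC, the 99.2nd and 99.3rd percentile, and Il7r read 108.6 and 94.78 in CDP against 8.53 to 29.21 in CMP and GMP. Kit, the CD117 gene, read 1229 and 1210 in CMP, 904.8 and 1085 in GMP, 367.9 and 334.6 in CDP, and 36.27 and 36.82 in pre-cDC. The array titled Spl stood apart, and its labels give the cell type as a bone marrow progenitor although the title sets it apart from the bone marrow samples. Its median was 74.17, it correlated at 0.888 with a bone marrow pre-cDC array, and Kit read 1105 there, the 94.0th percentile of that array, which goes against a low CD117 gate. It entered no test and is described separately.

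**Figure D1:**
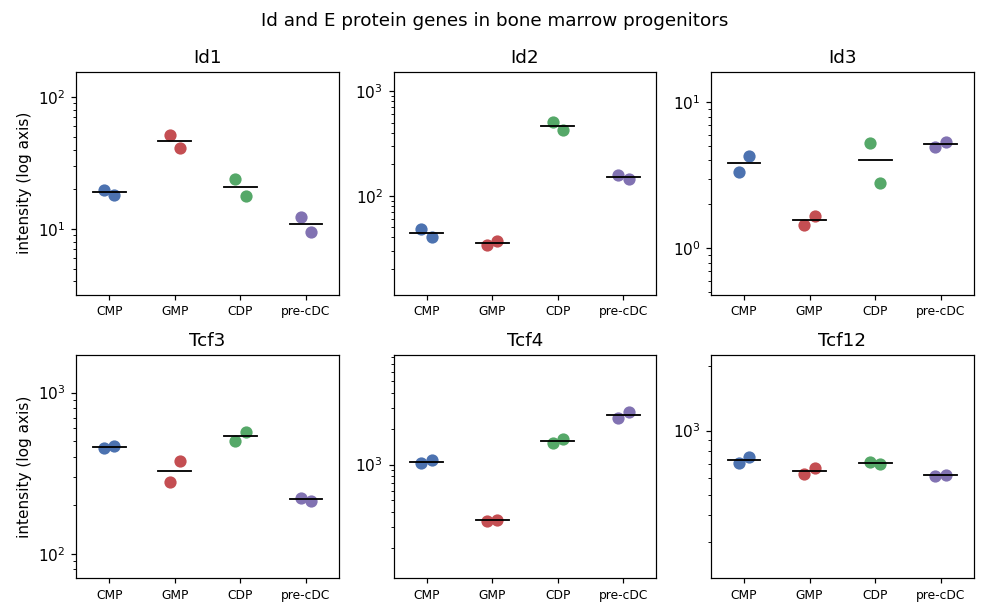
Intensity (log axis) of the representative probe set of each member gene in the 4 groups sorted from bone marrow; points are the 2 arrays of a group and lines their mean. Id2 was highest in CDP at 508.5 and 421.1, and Tcf4 was highest in pre-cDC at 2463 and 2757 and lowest in GMP at 336.7 and 345.4.

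Id2 was the Id gene that changed most among the progenitors. It read 48.1 and 40.21 in CMP, 34.19 and 37.11 in GMP, 508.5 and 421.1 in CDP, and 159.1 and 143.2 in pre-cDC. Both CDP arrays lay above every other progenitor array, and both pre-cDC arrays lay between CDP and the other groups. On the scale of log2(intensity + 32), which understates the change of dim genes, Id2 was higher in CDP than in CMP by 2.70 (SE 0.122, limma with Benjamini-Hochberg adjusted p = 1.51e-07). It was higher in CDP than in GMP by 2.87 (limma adjusted p = 1.05e-08) and fell by 1.44 from CDP to pre-cDC (limma adjusted p = 2.53e-06). The pre-cDC level was above those of CMP and GMP, by 1.27 and 1.44 on the log2 scale (limma adjusted p = 3.46e-06 and 9.33e-07). CMP and GMP could not be separated by the test, at a difference of -0.17 (adjusted p = 0.461), although their arrays did not overlap. In bulk arrays such as these, fewer cells with a transcript and less RNA per cell cannot be told apart.

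A second Id2 probe set gave the same order at lower intensity. Its mean was 22.0 ± 1.04 in CMP, 15.4 ± 1.68 in GMP, 309 ± 33.0 in CDP and 98.1 ± 3.22 in pre-cDC (mean ± SD, n = 2 arrays each). Its log2 differences of 2.66 for CDP against CMP and -1.39 for pre-cDC against CDP lay close to those of the first set. The third Id2 probe set stayed below the array median in all 8 progenitor arrays and was called in 0 of 6 comparisons by limma (adjusted p 0.248 to 0.816), with intensities no higher than 10.71.

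Id1, another Id gene and a classic target of BMP signalling, had a different order. It read 19.64 and 18.22 in CMP, 51.78 and 41.39 in GMP, 23.87 and 17.67 in CDP, and 12.27 and 9.52 in pre-cDC. The GMP arrays were the highest, the CMP and CDP arrays overlapped, and the pre-cDC arrays were the lowest and below the median of their arrays. Id1 was higher in GMP than in CMP by 0.62 (SE 0.0975, limma adjusted p = 0.00101), and lower in CDP and in pre-cDC than in GMP, by -0.57 and -0.87 (limma adjusted p = 0.000925 and 1.09e-05). The difference of -0.30 between pre-cDC and CDP passed narrowly (limma adjusted p = 0.0424) and was lost in 7 alternatives (adjusted p 0.0556 to 0.224), among them the omission of any CMP, any pre-cDC or the first CDP array. GMP against CMP also differed in genes of a neutrophil list, whose 6 genes summed to 5313 to 5631 in CMP and 14200 to 14890 in GMP. By limma 4 of the 6 rose and 0 fell, where 6.26% and 8.67% of all genes did. Most of the sum was Mpo, which read 5397 and 5071 in CMP and 8478 and 8764 in GMP. Ltf (9.1 and 7.0 in CMP, 10.73 and 7.96 in GMP) and Ngp (60.43 and 60.1, then 63.04 and 64.25) hardly differed. The part of these genes, or of other cells, in the Id1 difference was not tested.

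Id3, the third Id gene, was at the bottom of the range in every progenitor group. It read 3.35 and 4.3 in CMP, 1.45 and 1.67 in GMP, 5.27 and 2.79 in CDP, and 4.91 and 5.39 in pre-cDC, all below the array median. None of its 6 differences passed the threshold in limma (adjusted p 0.0585 to 0.966), and values this dim set no order.

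Among the E proteins, Tcf4 changed most and in every comparison. It read 1029 and 1086 in CMP, 336.7 and 345.4 in GMP, 1523 and 1623 in CDP, and 2463 and 2757 in pre-cDC. No arrays of different groups overlapped, and the order was pre-cDC, CDP, CMP and GMP, with each neighbour differing beyond its spread. Tcf4 fell by 1.55 on the log2 scale from CMP to GMP (SE 0.0917, limma adjusted p = 3.5e-07). It was higher in CDP than in CMP by 0.56 (limma adjusted p = 0.00208) and rose by a further 0.72 from CDP to pre-cDC (limma adjusted p = 7.55e-05). Pre-cDC against GMP gave the widest gap, 2.82 (limma adjusted p = 2.11e-10), a 7.07-fold difference on this scale.

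The calls of the 6 Tcf4 probe sets ran in 1 direction within each comparison. In GMP against CMP, 5 of the 6 fell; in CDP against GMP and in pre-cDC against both CMP and GMP, 6 of 6 rose. The comparison of pre-cDC with CDP had 5 of 6 higher, and that of CDP with CMP had 3 of 6. The representative set carries the suffix _x, by which the array's maker marks sets with probes that may match other transcripts, so its level alone is uncertain. The second set, without that suffix, read 957 ± 121 in CMP, 284 ± 12.2 in GMP, 1262 ± 22.3 in CDP and 1942 ± 27.7 in pre-cDC (mean ± SD, n = 2 arrays each). The sixth set was dim, with means of 15.8 to 37.3, and its differences were the smallest.

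The summed level of plasmacytoid dendritic cell markers had the same order of groups as Tcf4, but its genes did not all share it. The summed level of 8 such genes was 504.7 to 530.3 in GMP, 674.6 to 674.8 in CMP, 1120 to 1317 in CDP and 2497 to 2866 in pre-cDC. Of these 8 genes 5 were below the array median in GMP and 0 in pre-cDC. Most of the sum was Bst2, which read 2310 and 2009 in pre-cDC. From CDP to pre-cDC 4 of the 8 genes rose and 2 fell by limma, where 13.2% and 17.4% of all genes did. Those that fell were Ccr9 (-0.33) and Cox6a2 (-0.81), and Klk1 (0.08) and Tlr9 (0.01) did not pass. Whether cells of that type contributed to the Tcf4 level of the pre-cDC sort was not tested.

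Tcf3, an E protein gene central to early lymphocyte development, went the other way between CDP and pre-cDC. It read 454.1 and 465.9 in CMP, 279.5 and 377.1 in GMP, 504.1 and 569.6 in CDP, and 222.4 and 212.7 in pre-cDC. Both pre-cDC arrays lay below all the others, and the GMP arrays lay between them and CMP. Tcf3 fell by 1.19 from CDP to pre-cDC (SE 0.134, limma adjusted p = 2.75e-05) and was lower in pre-cDC than in CMP, by -0.98 (limma adjusted p = 7.49e-05). All 3 Tcf3 probe sets passed in the same direction in both of these comparisons. The dimmest of the 3 carries the suffix _x, so the caution given for the representative Tcf4 set holds for it too. In CDP against GMP the representative set was higher by 0.67 (limma adjusted p = 0.00279), and again 3 of 3 sets passed. CDP and CMP differed by 0.21, which missed the threshold (adjusted p = 0.435).

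The level of Tcf3 in GMP was less certain, since its arrays differed from each other more than those of the other groups. The difference of -0.46 from CMP (limma adjusted p = 0.0408) was called for 1 of 3 sets and was lost in 7 alternatives (adjusted p 0.0508 to 0.381), among them the omission of either CMP array, either pre-cDC array or the first GMP array. The difference of -0.52 between pre-cDC and GMP (limma adjusted p = 0.00769) was called for 1 of 3 sets. Without the second GMP array it shrank to -0.32 and was lost.

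Tcf12, which encodes the E protein HEB, varied little in its brightest probe set. It read 707.8 and 752.8 in CMP, 625.8 and 668.6 in GMP, 709.9 and 698.7 in CDP, and 612.2 and 621.4 in pre-cDC. The representative set passed the threshold in 0 of 6 comparisons by limma (adjusted p 0.0846 to 0.842); its largest difference, -0.23 in pre-cDC against CMP, passed under quantile normalization (-0.31, adjusted p = 0.02) and without an intensity trend (adjusted p = 0.0308). Another, dimmer Tcf12 set disagreed with it. That set read 19.9 ± 4.89 in GMP and 61.0 ± 15.3 in CDP (mean ± SD, n = 2 arrays each), and was called lower in GMP than in CMP (-0.51), higher in CDP than in GMP (0.83) and higher in pre-cDC than in GMP (0.69). A further set was higher in CDP than in GMP by 0.29, and the other sets were called nowhere.

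**Figure D2:**
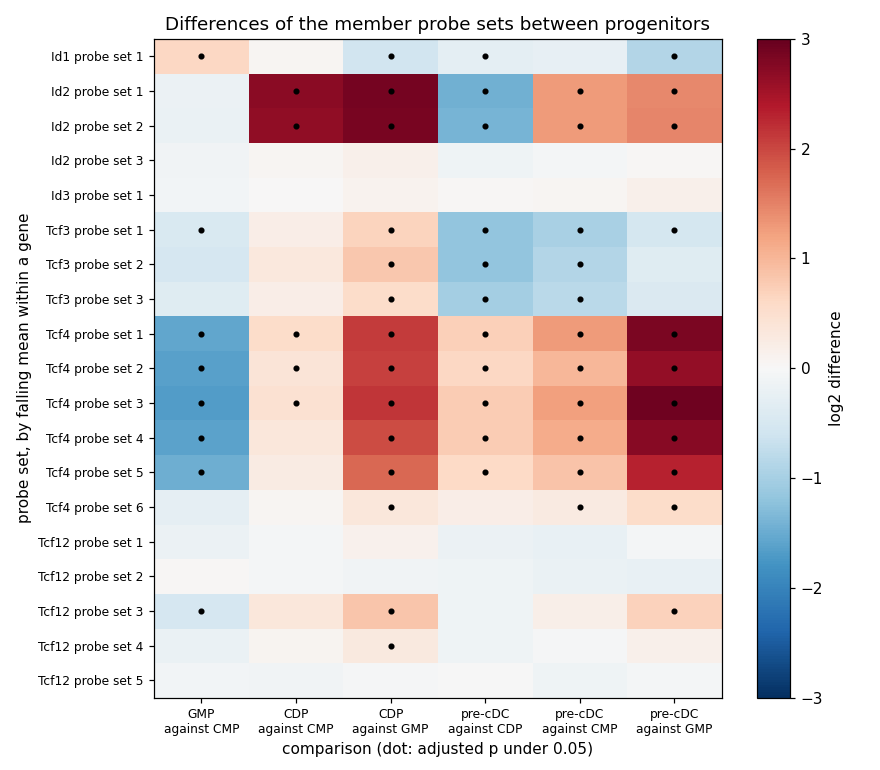
Log2 difference (colour, red for higher and blue for lower in the group named first) of the 19 member probe sets in each of 6 comparisons between progenitors; a dot marks a limma adjusted p under 0.05. The Tcf4 rows are blue in GMP against CMP and red in the other columns. The Tcf3 rows are blue in GMP against CMP and in every pre-cDC column.

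Counted over probe sets, the members passed most often in CDP against GMP, with 14 of 19 called where 23.9% of all probe sets were. Of these 13 were higher and 1 lower, against 15.3% and 8.62% of all. GMP against CMP had 8 calls, 1 higher and 7 lower, where 12.4% of all were called, 4.73% higher and 7.69% lower. CDP against CMP had 5 calls, 5 higher and 0 lower, where 8.97% of all were called, 5.24% higher and 3.72% lower; without the first CDP array or without the first CMP array the count was 3. Pre-cDC against CDP had 11, 5 higher and 6 lower, where 24.6% of all were called, 11.7% higher and 12.9% lower. Pre-cDC against CMP had 11, 8 higher and 3 lower, where 34.1% of all were called, 17.5% higher and 16.6% lower. Pre-cDC against GMP also had 11, 9 higher and 2 lower, where 38.4% of all were called, 21.3% higher and 17.1% lower. These comparisons share groups of arrays and are not independent of each other. The median log2 difference of the members was 0.67 in CDP against GMP, where that of all probe sets was 0.02, and between -0.26 and 0.21 in the other comparisons. Since the probe sets of a gene share their transcript, these counts come from 6 genes, 5 of which had a call in CDP against GMP and 2 in CDP against CMP.

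The genes whose levels followed a member most closely over the 8 progenitor arrays were found by Pearson correlation of log2 values among 3059 genes that varied at least 2-fold. For Id2 they were Epha2, an ephrin receptor gene (r = 0.986), Hpse, the heparanase gene (0.984), and Klhl25 (0.966). Hpse read 149, 142, 377 and 252 as means of CMP, GMP, CDP and pre-cDC, the same order of CDP above pre-cDC that Id2 had. For Tcf4 they were Il17ra, an interleukin receptor gene (0.995), Peli1, a ubiquitin ligase gene (0.993), and Rictor, a subunit gene of an mTOR complex (0.993). Il17ra rose from a mean of 259 in GMP to 706 in CMP, 977 in CDP and 1759 in pre-cDC.

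For Tcf3 the closest genes were Fbf1 (0.99), Twsg1 (0.977), which encodes a secreted BMP-binding protein, and Tapt1 (0.976). For Id1 they were Fndc3b (0.992), Chpt1 (0.984) and Abcd2 (0.983), each with its highest mean in GMP. Id3 and Tcf12 spanned only 0.15 and 0.23 on the log2 scale over group means, so their closest genes, led by Parp9 (0.939) and Firre (0.979), describe small differences. All of these correlations rest on 4 groups of 2 arrays that share a scale, and are descriptions of likeness.

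Partners, regulators and known target groups of these factors were taken from 6 lists, and each gene was tested in the same limma fit. Of the 15 measured class II helix-loop-helix partners and Id4, 0 rose and 4 fell in CDP against GMP, where 14.9% of all genes rose and 11.2% fell. In pre-cDC against CDP 0 rose and 2 fell, where 13.2% of all genes rose and 17.4% fell. The share that fell there was thus not above that of all genes. In pre-cDC against GMP 0 rose and 5 fell, where 20.4% of all genes rose and 22.2% fell. Tal1, a class II partner needed for blood cell formation, read 501 ± 47.9 in CMP, 247 ± 73.4 in GMP, 147 ± 25.8 in CDP and 15.5 ± 7.90 in pre-cDC (mean ± SD, n = 2 arrays each). It fell by 1.92 on the log2 scale from CDP to pre-cDC (limma adjusted p = 6.19e-06). Lyl1, its close relative, fell by 0.65 in the same comparison (limma adjusted p = 0.000326), from 1277 ± 42.7 to 807 ± 82.1. Tal1 also serves the erythroid lineage. The summed level of 7 erythroid markers was 4063 to 5369 in CMP, 2543 to 4550 in GMP, 150.2 to 212.1 in CDP and 63.01 to 74.68 in pre-cDC. From CDP to pre-cDC 0 of the 7 rose and 1 fell by limma, where 13.2% and 17.4% of all genes did. Most of that drop in the sum was Car2, which read 112.1 and 150.7 in CDP and 5.59 and 10.03 in pre-cDC. The part of the erythroid lineage in the Tal1 differences was not tested.

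Of 22 measured cofactors and complex members of E proteins, 9 rose and 4 fell in pre-cDC against CDP, where 13.2% of all genes rose and 17.4% fell, so the share that fell was near that of all genes. Cbfa2t3, a corepressor gene of the ETO family, read 1161 ± 7.00 in CDP and rose to 2452 ± 239 in pre-cDC (by 1.06 on the log2 scale, limma adjusted p = 1.92e-05). Tle1, a Groucho corepressor gene, rose from 76.9 ± 7.94 to 341 ± 19.1 (1.78, limma adjusted p = 1.55e-07), and Lmo1, a LIM adaptor gene, by 1.13 (limma adjusted p = 1.51e-05). In GMP against CMP, 1 cofactor rose and 8 fell, where 6.26% and 8.67% of all genes did; those that fell included the LIM-complex genes Ssbp2 (-1.03) and Ldb1 (-0.99) and Runx1 (-0.70). Leaving out 1 array at a time gave 4 to 8 falls there, with 4 without the second CMP array and 5 without the first GMP array.

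In the BMP and TGF-beta route that regulates Id genes, 12 of 29 genes rose and 2 fell in CDP against GMP, where 14.9% of all genes rose and 11.2% fell. The number that rose was lower in some fits with 1 array left out, so it is uncertain. Smad4, the common Smad, was higher in CDP by 1.01 (842 ± 52.9 against 402 ± 26.2, limma adjusted p = 3.76e-05), and Smad1 and Bmpr2, of the BMP branch, by 0.89 and 0.84 (limma adjusted p = 0.000204 and 0.0002). From CDP to pre-cDC 9 of 29 genes of the route rose and 5 fell, where 13.2% of all genes rose and 17.4% fell. Smad5 and Smad3 fell (-1.18 and -1.36, limma adjusted p = 6e-06 and 4.24e-05), and the corepressor gene Sbno2 rose (1.11). In GMP against CMP 1 gene of the route rose and 8 fell, where 6.26% and 8.67% of all genes did. The falls were led by the TGF-beta coreceptor gene Eng (-1.04). Fewer genes fell when the second CMP array or either GMP array was left out, so this count is uncertain.

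Of 24 lymphoid genes known to depend on E proteins, 12 rose and 0 fell in CDP against GMP, where 14.9% and 11.2% of all genes did, and 7 rose without the second GMP array. In pre-cDC against CDP 2 rose and 11 fell, where 13.2% and 17.4% of all genes did. In pre-cDC against CMP 4 rose and 7 fell, where 18.3% and 22.1% of all genes did, and both shares of the list were near these. In pre-cDC against GMP 6 rose and 2 fell, where 20.4% and 22.2% did, so the share that rose was near that of all genes. Tcf3 was lower in pre-cDC than in each other group, less certainly so against GMP, and its part in these counts was not tested. Dntt, which encodes the terminal transferase of antigen receptor genes, read 1040 ± 151 in CMP, 7.10 ± 0.976 in GMP, 992 ± 178 in CDP and 4.44 ± 1.44 in pre-cDC. Erg, an Ets factor gene, and Cd27, a costimulatory receptor gene, fell from CDP to pre-cDC (-2.51 and -2.23, limma adjusted p = 4.96e-08 and 4.23e-07). Il7r, a member of this list that rose by 1.14 in CDP against CMP, is also a gene of the sort gates, and 6 genes of the list are B cell markers. The summed level of 7 B cell markers was 366.1 to 400.5 in CMP, 365.1 to 394.3 in GMP, 379.7 to 431.4 in CDP and 372.1 to 394.4 in pre-cDC, with ranges that overlapped.

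Of 19 measured genes known to depend on Tcf4 in plasmacytoid dendritic cells, 2 rose and 7 fell in GMP against CMP, where 6.26% and 8.67% of all genes did. Without the second CMP array or the second GMP array 4 fell. In CDP against GMP 12 rose and 1 fell, where 14.9% and 11.2% of all genes did. In pre-cDC against CDP 10 rose and 4 fell, where 13.2% and 17.4% did, and in pre-cDC against GMP 14 rose and 0 fell, where 20.4% and 22.2% did. Bcl11a, a factor of that lineage, read 272 ± 58.5 in GMP, 1222 ± 31.9 in CDP and 2439 ± 14.1 in pre-cDC. Spib, an Ets factor gene, read 3.03 ± 0.891 in GMP, 30.4 ± 1.25 in CDP and 1549 ± 35.0 in pre-cDC, a log2 difference of 4.66 between the last 2 groups (limma adjusted p = 4.15e-11). Dntt, also on this list, went against it from CDP to pre-cDC (-4.80). The list shares 7 of its genes with the plasmacytoid markers whose summed level is given above, so its count is not independent of them.

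Of 19 genes associated with Id2-dependent classical dendritic cells, 7 rose and 0 fell in CDP against CMP, where 6.40% and 5.55% of all genes did, with 4 to 7 rising when 1 array was left out and 4 without the first CMP array. In pre-cDC against CDP, where Id2 fell, 8 of these genes rose and 1 fell, where 13.2% and 17.4% of all genes did. Nfil3, a factor gene of classical dendritic cell development, was highest in CDP as Id2 was, but lowest in pre-cDC. It read 46.0 ± 0.163 in CMP, 50.5 ± 10.9 in GMP, 440 ± 13.9 in CDP and 10.1 ± 1.62 in pre-cDC. Its rise from CMP to CDP was 2.60 (limma adjusted p = 1.45e-07) and its difference from CDP to pre-cDC was -3.49 (limma adjusted p = 1.22e-09). Irf4 read 11.9 ± 1.98 in CDP and 397 ± 56.9 in pre-cDC (higher by 3.28, limma adjusted p = 1.22e-09). Itgax rose by 1.59 from CMP to CDP and by 3.22 from CDP to pre-cDC. Flt3 had means of 1198 in CMP, 33.8 in GMP, 1516 in CDP and 1378 in pre-cDC. Itgax and Flt3 encode CD11c and CD135 and were used in the sorts.

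**Figure D3:**
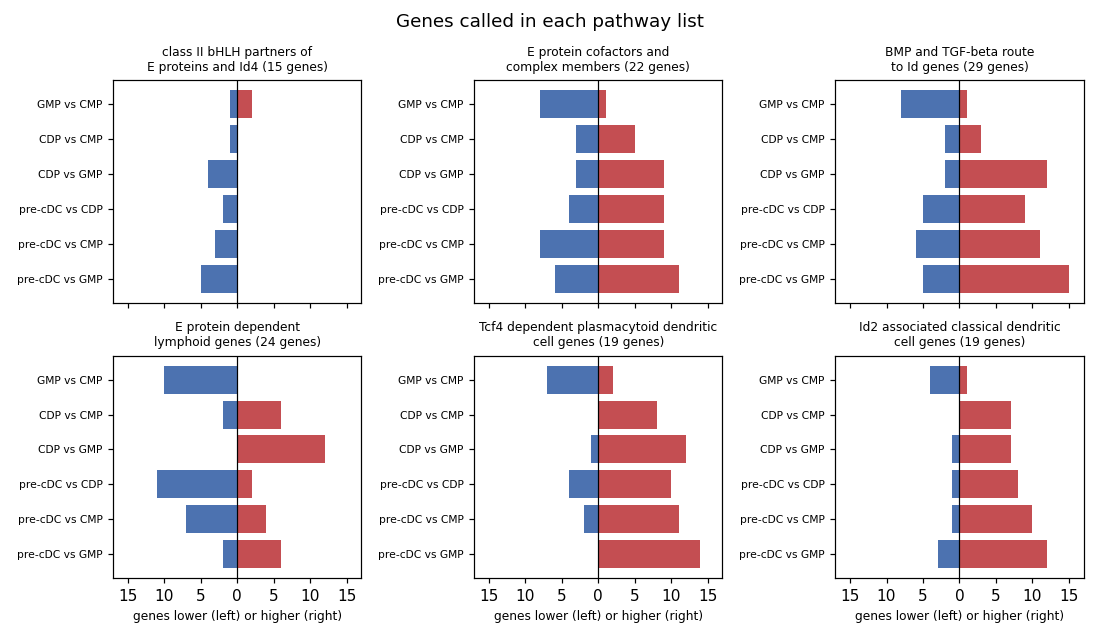
Number of genes called by limma in each of the 6 pathway lists and 6 progenitor comparisons; bars to the right count genes higher and bars to the left genes lower in the group named first. The list of Tcf4-dependent genes reaches 14 higher and 0 lower in pre-cDC against GMP, and the lymphoid list has 11 lower in pre-cDC against CDP.

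In the cultures Id2 was near the top of the array, and Tcf4 read lower with GM-CSF than with M-CSF. Id2 read 4167 with M-CSF, 6125 in adherent cells with GM-CSF and 6381 in CD11c+ cells, the 98.3rd to 99.4th percentile of these arrays. Tcf4 read 562.7 with M-CSF, 257.8 in adherent and 204.6 in CD11c+ cells with GM-CSF. The M-CSF array was the lowest for Id2 and the highest for Tcf4. With 1 array per condition there is no test, and the rule for counting a probe set was a difference of 2-fold or more with the higher value above its array's median.

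By that rule 5 of 19 members were counted between the adherent cells of GM-CSF and M-CSF (1 higher, 4 lower), where 3.74% of all probe sets were, 2.27% higher and 1.47% lower. The 4 lower ones were Tcf4 sets, from -1.04 to -1.27, and the higher one was the third Id2 set (1.34). Between CD11c+ cells and M-CSF adherent cells 6 were counted (2 higher, 4 lower) against 7.03% of all, 3.76% higher and 3.27% lower. These were again 4 Tcf4 sets, from -1.09 to -1.87, the second Id2 set (1.36) and Tcf3 (1.01), which read 298.5 and 132.2. Between the CD11c+ and adherent cells of GM-CSF 0 members were counted, where 2.58% of all probe sets were, 1.65% higher and 0.928% lower. Id1 read 70.33 in adherent cells with GM-CSF, 22.74 in CD11c+ cells and 22.85 with M-CSF. Id3 stayed at 7.23 to 12.66, below the array median in all 3, and Tcf12 read 1151 to 1441.

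Genes of the lists also differed between the cultures. Of 19 genes of Id2-dependent classical dendritic cells, 10 were counted higher and 1 lower in CD11c+ cells than with M-CSF, where 5.32% and 4.29% of all genes were. Irf4 (4.06) and Relb (3.62), a factor gene of dendritic cell maturation, were higher, and the adhesion gene Cadm1 was lower (-3.63). The corepressor gene Cbfa2t3 was higher there by 3.62, reading 1010 in CD11c+ cells and 52.56 with M-CSF. The neutrophil markers summed to 6554 with M-CSF, 13670 in adherent and 1139 in CD11c+ cells with GM-CSF, and their part in these differences was not tested.

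**Figure D4:**
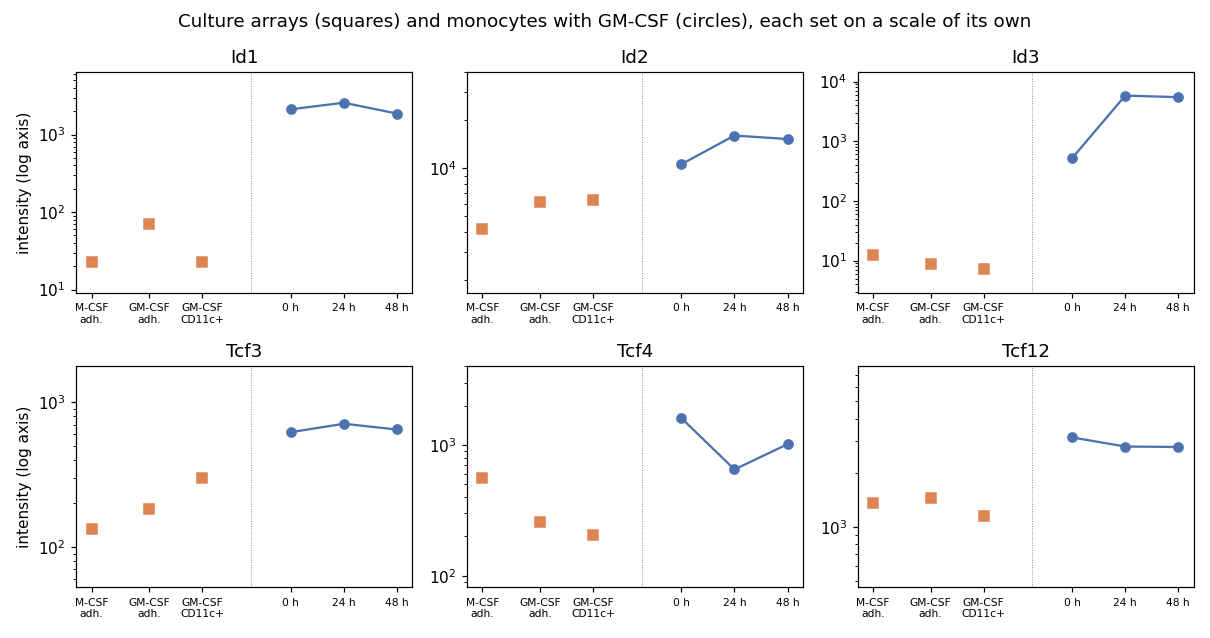
Intensity (log axis) of the representative probe set of each member gene in the 3 culture arrays (squares) and in monocytes after 0, 24 and 48 h of GM-CSF (circles), 1 array per point and with no error. Id3 rises from 520.3 to 5814 in monocytes, and Tcf4 falls from 1607 to 650.3 before reading 1014.

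Monocytes differed from the progenitors in that all 3 Id genes were well above the array median. Id1 read 2114, 2573 and 1865 after 0, 24 and 48 h of GM-CSF, and the 3 values lie within 2-fold of each other. Id2 read 10610, 16030 and 15240, the 98.6th to 99.7th percentile. Id3 read 520.3 at the start and 5814 and 5480 later, so both later arrays were above the first by about the same amount.

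From 0 to 24 h, 7 of 19 members were counted (2 higher, 5 lower), where 11.9% of all probe sets were, 4.87% higher and 7.05% lower. Id3 was higher by 3.40, a 10.6-fold difference on the scale of log2(intensity + 32). The other higher one was the second Id2 set (2.28), which read 1115, 5542 and 4778, whereas the representative Id2 set was higher by only 0.59 and the third by 0.15, so the Id2 sets disagree on the size of the difference. Of the 6 Tcf4 sets 4 were counted lower, from -1.26 to -1.44, and so was a dim Tcf12 set (-1.27). The representative Tcf4 set read 1607, 650.3 and 1014.

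From 0 to 48 h, 3 members were counted (2 higher, 1 lower) against 11.5% of all, 5.63% higher and 5.9% lower. They were Id3 (3.32), the second Id2 set (2.07) and a Tcf4 set (-1.36). Between 24 and 48 h 0 members were counted, where 2.81% of all probe sets were, 2.06% higher and 0.755% lower. Tcf3 read 619.7, 708.6 and 646.9 and Tcf12 read 3148, 2801 and 2784, within 2-fold throughout. The 6 genes of the neutrophil list summed to 18940 at 0 h, 2448 at 24 h and 3137 at 48 h, but did not all change alike. S100a8 read 10660, 1086 and 1465 and Mpo 4935, 170.2 and 277.3, which made up most of the drop. Ngp read 890.4, 603.3 and 966.7, and Ltf 186.8, 121.8 and 128.3. The labels give a purity above 90% for the sorted cells. The part of other cells in the change of any member was not tested.

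Among the partners, Lyl1 read 7308 at 0 h, 258.9 at 24 h and 103.4 at 48 h, a log2 difference of -5.76 between the ends, the opposite direction to Id3. Bcl11a, of the Tcf4-dependent list, was lower at 24 h (-2.98). Of 19 genes of that list 5 were counted lower and 1 higher at 24 h, where 7.29% and 6.22% of all genes were. At 48 h against 0 h 6 were lower and 1 higher, where 6.19% and 7.4% of all genes were. The higher one at 48 h was Pacsin1 (4.61). Of the Id2-associated list 8 were higher and 3 lower at 24 h, where 6.22% and 7.29% of all genes were. Itgax read 59.32 and then 12040, and Cd207, the langerin gene of Langerhans cells, was higher by 4.86 at 48 h than at 24 h. In the BMP and TGF-beta route Smad3 was lower (-2.21) and the receptor gene Acvrl1 higher (1.52) at 24 h.

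The Spl array was set against bone marrow pre-cDC mainly by rank within each array. Id3 stood at the 98.1th percentile there, against 14.7 and 16.2 in the bone marrow arrays, and its intensity was 2784. Id1 stood at 68.1 against 42.2 and 33.5, and the third Id2 set at 58.1 against 8.2 and 17.3. These 3 of 19 members lay at least 20 points above both bone marrow arrays, where 5.37% of all probe sets did. Id2 stood at 92.4 against 82.0 and 80.9.

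Lower by at least 20 points were 2 members, both Tcf3 sets, where 4.66% of all probe sets were. They stood at 31.5 against 77.6 and 72.5, and at 19.4 against 70.2 and 66.5, the latter being the set with the suffix _x. The representative Tcf3 set stood at 69.2 against 85.2 and 84.8. Tcf4 stood at 99.1 against 98.6 and 98.8, and Tcf12 at 93.5 against 93.0 and 93.3, close to the same ranks. The scale decides what is read from this. With the arrays scaled to a common median, Id3 was the only member at least 2-fold higher (4.18), and 5 members were at least 2-fold lower, among them the representative sets of Tcf3 (-1.87), Tcf4 (-1.26) and Tcf12 (-1.27). The array's scale, its correlation with bone marrow pre-cDC and its Kit level differ from theirs, and whether the members' ranks come with the cells or with the array was not tested.

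**Figure D5:**
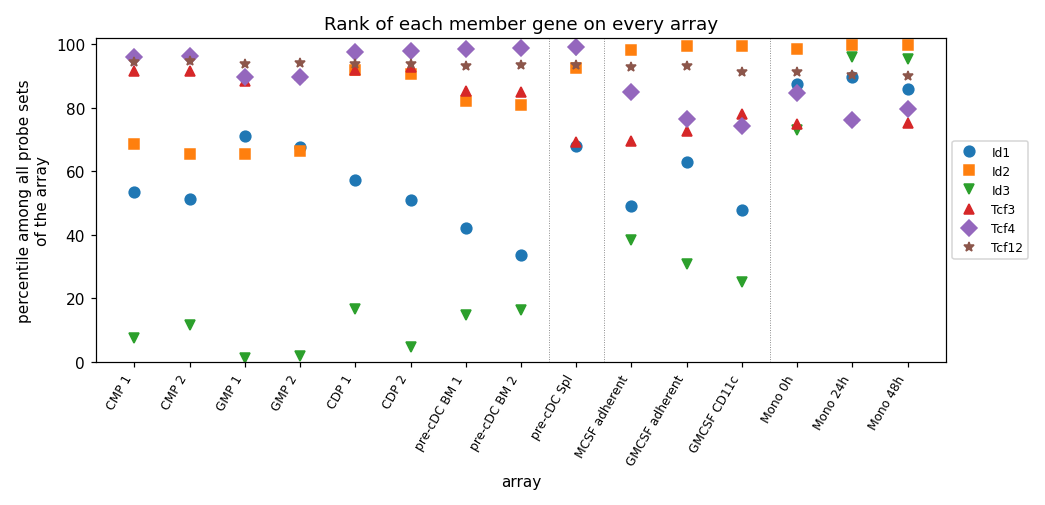
Percentile of each member gene's representative probe set among all probe sets of the same array, for the 15 arrays; dotted lines part the progenitor, Spl, culture and monocyte arrays. Id3 lies at 1.2 to 16.7 in the 8 progenitor arrays and at 98.1 on the Spl array, and Tcf12 stays between 89.9 and 94.6 throughout.

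Ranks within an array allow the sets to be placed side by side without a common scale. Id2 stood between the 65.3rd and 91.9th percentile in progenitors and above 98 in cultures and monocytes. Tcf4 stood at 89.6 to 98.8 in progenitors, 74.1 to 84.9 in cultures and 76.1 to 84.7 in monocytes, and Tcf3 at 84.8 to 92.7, 69.4 to 78.0 and 74.8 to 76.9. Id1 ranged from 33.5 to 71.0 in progenitors and from 85.9 to 89.6 in monocytes. These sets differ in scale and preparation as well as in cells, so no test was made between them.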

How the data were processed

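Expression was measured on 15 arrays, and the values used are intensities on a linear scale, 1 per probe set and array, as the authors deposited them. Background correction, summarisation and scaling are not given in the sources used here. Members, lists and tests were chosen with earlier results of these data known. Differences were formed on log2(intensity + 32) within the progenitor, culture or monocyte arrays. The progenitors were tested in a single limma fit (limma 3.58.1 in R 4.3.3; eBayes with an intensity trend) of 8 arrays (4 residual degrees of freedom, moderated to 12.2), two-sided, with Benjamini-Hochberg adjustment over 45037 probe sets and a threshold of 0.05. The calculation was tested on simulated data. Genes named are all members, up to 3 called genes of each list and comparison with the largest differences and a higher level above the array median, the 3 genes most like each member, and genes of the sort gates. Lists (168 of 184 symbols measured) and all-gene shares use 1 probe set for each of 18193 genes. List genes carry the annotation's symbols; RefSeq promoters matched 4 of the 6 members. Tables and figures were made in Python 3.11.15 with pandas 2.3.3 and matplotlib 3.10.9. Alternatives were the added value, scaling, normalization, the trend, dim probe sets, 1 probe set per gene, a replicate block and leaving out each array. The number of arrays limits the precision.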

Additional observations from a re-analysis of the deposited data

How the results depend on the processing

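Signs of the tested member differences turned only for Id1 and Id3 among the alternatives run. In CDP against CMP, Id1 gave -0.04 to 0.13 and Id3 -0.04 to 0.06 with 1 array left out, and Id3 gave 0.0 to 0.09 in pre-cDC against CDP. The count of members called in CDP against CMP was 3 to 5 with 1 array left out. Over the whole table such omissions gave 2535 to 6075 calls in GMP against CMP, 1859 to 4200 in CDP against CMP and 6623 to 11005 in CDP against GMP. With 1 probe set per gene, which tests 18193 in place of 45037, GMP against CMP had 3049 calls, CDP had 2626 against CMP and 5090 against GMP, and pre-cDC had 6041, 7670 and 8013 against CDP, CMP and GMP. At 4-fold in place of 2-fold, 0 members were counted between the adherent cultures, 0 between CD11c+ and M-CSF cells and 2 in monocytes at 24 h. With 16 added, 1 member (Id1, -1.16) was counted between the GM-CSF cultures, and Id1 was also counted between the adherent cells (1.15); with 64 added, Tcf4 between the adherent cells (-0.96) and Tcf3 between CD11c+ and M-CSF cells (0.89) no longer were. On the Spl array scaled to a common median, 1 member was counted higher in place of 3. Same-numbered arrays deviated together at 0.1234 to 0.3488 in all pairs of groups except CMP and GMP (0.0125), so some shared deviation is present. Their titles share a tag, WT1 or WT2, and the labels do not say whether it marks a shared source. The main fit did not take the numbers as pairing. With a replicate block 35 of 36 member results kept their call, and Id1 in pre-cDC against CMP passed (-0.25, adjusted p = 0.0383), as it did with 16 added (0.0484) and without dim probe sets (0.0388). Without the first CDP array Id3 passed in pre-cDC against GMP (0.15, adjusted p = 0.0479).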
